A study of Oryctolagus cuniculus with 24 samples.

Results

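Solute carriers are the membrane proteins, named SLC and numbered by family, that move amino acids, sugars, metal ions, vitamins, nucleotides and other small molecules into cells and between their compartments. The 140 SLC genes described here were measured in peripheral blood mononuclear cells (PBMCs), the lymphocytes and monocytes of blood, of 4 adult female New Zealand White rabbits. They were chosen from 229 SLC genes among 28912 genes and identifiers on a rabbit oligonucleotide array. Of its 42089 probes, 21584 stand under an identifier without a gene symbol. The entries called genes in the shares of all genes and of detected genes below include these identifiers. A gene was kept if at least 1 of its probes was flagged as well above background on all 4 arrays of at least 1 of the 6 groups, so the measured signals themselves chose the members.

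PBMCs were isolated on a Ficoll gradient and cultured in RPMI medium with serum as mock-stimulated cells, with lipopolysaccharide (LPS) at 1 µg/mL, or with phorbol 12-myristate 13-acetate (PMA) at 10 ng/mL together with ionomycin at 1 µg/mL. LPS is a component of the outer membrane of Gram-negative bacteria that is sensed mainly by monocytes. PMA activates protein kinase C and ionomycin lets calcium into the cell, so that the pair bypasses the antigen receptors of lymphocytes. Cells were taken after 4 h (T4) or 24 h (T24), and each of rabbits 1, 2, 4 and 5 gave 1 array to each of the 6 groups. The cultures were mixtures, so for every gene below fewer cells of a type and less RNA per cell cannot be told apart.

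Resting lymphocytes have low needs for nutrients, and activated ones raise the uptake of amino acids, glucose, iron and vitamins before they divide. The best studied amino acid carriers of activated lymphocytes are heterodimers. SLC3A2, also called CD98 or 4F2hc, is the heavy chain that brings its light chains to the cell surface. SLC7A5 (LAT1) and SLC7A8 (LAT2) are light chains for large neutral amino acids, and SLC7A6 and SLC7A7 (y+LAT2 and y+LAT1) are light chains that exchange cationic for neutral amino acids. SLC1A5 (ASCT2) and SLC38A2 (SNAT2) take up glutamine and other small neutral amino acids with sodium, and SLC7A1 (CAT1) takes up arginine and lysine. In the mitochondria, the SLC25 family carries nucleotides, metabolites and cofactors across the inner membrane.

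The light chains are close relatives, and the sequences of their probes, 60 bases long, bear on how their values are read. A 20-base run, printed in capitals, was shared by the SLC7A7 probe and by the SLC7A6 probe that lies upstream of that gene's other 5, and no other pair of the 485 SLC probes from different genes shared 20 bases or more. The further lines show a downstream probe of SLC7A6, a probe of each of the 2 SLC7A8 sites, and the probes of 4 genes that the results below turn on. For SLC7A5 and for the downstream SLC7A8 probe the first 30 bases of 60 are shown, and the files gave no position for the SLC3A2 and SLC7A5 probes.
SLC7A7: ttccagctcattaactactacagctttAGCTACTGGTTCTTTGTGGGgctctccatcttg
SLC7A6 upstream: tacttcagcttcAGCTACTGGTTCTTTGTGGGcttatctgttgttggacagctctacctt
SLC7A6 downstream: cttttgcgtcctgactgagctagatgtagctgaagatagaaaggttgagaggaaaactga
SLC7A8 upstream: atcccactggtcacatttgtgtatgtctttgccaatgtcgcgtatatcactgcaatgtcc
SLC7A8 downstream: ctcctgtctttcaattggtttaggtcttaa
SLC7A5: agctttgcttctgtttgttttgtcctaaca
SLC3A2: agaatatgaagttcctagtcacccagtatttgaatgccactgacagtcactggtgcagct
SLC39A8: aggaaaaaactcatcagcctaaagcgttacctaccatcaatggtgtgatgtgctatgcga
SLC25A12: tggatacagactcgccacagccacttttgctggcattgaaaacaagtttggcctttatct
On the OryCun2 build that the probe names use, the SLC7A7 probe lies at chr17:43017769-43017828 and the SLC7A6 probes at chr5:23835227-23835286 (upstream) and chr5:23836094-23836153 (downstream). The SLC7A8 probes lie at chr17:43358928-43358987 (upstream) and chr17:43347440-43347499 (downstream), the SLC39A8 probe at chr15:47448583-47448642 and the SLC25A12 probe at chr7:111492574-111492633. Whether these bases are exonic by a given annotation was not analysed here.

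Of the 229 SLC genes, all 6 groups detected 80 by that flag, 1 to 5 groups detected 60, and no group detected 89. The mock T4 group detected 113 of the members in this way, LPS T4 93, PMA-Ionomycin T4 107, mock T24 122, LPS T24 124 and PMA-Ionomycin T24 118. The 8 members inside the rule through a single group (SLC13A2, SLC16A12, SLC25A30, SLC25A31, SLC35F3, SLC45A2, SLC4A4 and SLC8A3) had highest group means between -0.96 and 0.05 on the log2 scale. The 8 genes just outside it, above background on at most 3 of 4 arrays of any group, spanned -0.50 to 0.17. Here and below, a level is the log2 median signal minus the median of the array, averaged over a gene's probes, and is given as mean ± SD over 4 rabbits or for rabbits 1, 2, 4 and 5 in that order. Besides the 8 members inside through 1 group, 12 passed through 2 groups alone, and where such a member is compared with a group that did not admit it, its call rests in part on the rule. Levels were compared between groups for one gene, never between genes, whose probes differ.

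A list of 51 SLC genes known from immune cells or from metal, amino acid and nucleoside transport held 32 members and 2 genes on the array that were not members. The other 17, among them SLC2A1, SLC2A3, SLC7A11, SLC11A1, SLC40A1 and SLC16A3, were not found under these names. Names came from the array's design for 118 of the 485 SLC probes, from a RefSeq accession for 212 and from a gene number for 155. Some names are uncertain: the accession behind 4 SLC25A23 probes now belongs to SLC25A24, SLC5A9 joins probes of 2 genes, and SLC9A3R1 is a scaffold protein of transporters rather than a carrier. All 3 slides held all 6 groups, and between 51.4% and 62.3% of non-control spots per array were well above background. With 4 arrays a group, the number of arrays limits the precision of every value.

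After PMA-Ionomycin, SLC genes rose and fell at both times. At T4 the largest rises were in the pyrimidine nucleotide carrier SLC25A33 (7.55-fold), SLC35G1 (6.09-fold) and the creatine carrier SLC6A8 (6.04-fold), and the largest falls in the choline carrier SLC44A2 (5.08-fold lower) and the serotonin carrier SLC6A4 (3.37-fold lower). At T24 the amino acid carriers SLC7A8 and SLC7A5 rose most (7-fold and 4.4-fold), and SLC7A7 fell most (4.4-fold lower). The errors, given with each gene below, are SE of the log2 fold change (FC) with 4 rabbits a group. A gene is called where limma's moderated test over all genes gave a Benjamini-Hochberg adjusted p under 0.05. Against mock at T4, 46 of the 140 members (32.9%) were called, 31 higher and 15 lower, where 22.9% of all 28795 tested genes were called (13.5% higher, 9.37% lower). Without rabbit 2, 31 members were called higher and 8 lower. With Agilent's processed signal the split of the members was 31 higher and 21 lower. That of all genes turned, from 3885 higher and 2698 lower to 3296 and 3710. Of the 17468 genes detected in at least 1 group, as the members are, 36.6% were called, 21.4% higher and 15.2% lower. Among the 80 members detected in every group, 21 were called higher and 10 lower, and among the 89 SLC genes that were not members 1 was called lower. The median log2 FC was 0.10 over the members and 0.05 over all genes. These shares lie near the background of detected genes.

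At T24, 65 members (46.4%) were called against mock, 33 higher and 32 lower, where 33.7% of all genes (22.2% higher, 11.5% lower) and 53% of the detected genes (35.2% higher, 17.8% lower) were called. With Agilent's processed signal, which moved the median of all genes by more than 0.1, the split of the members was 22 higher and 43 lower, and that of all genes turned as well, from 6387 higher and 3315 lower to 4675 and 5419. With the deposited log2 table it was 26 and 40 for the members and 5343 and 5127 for all genes. Among the 80 members detected in every group, 24 rose and 14 fell, and 5 of the 89 other SLC genes were called, all lower. The median log2 FC was 0.01 over the members and 0.03 over all genes. The arrays of the PMA-Ionomycin and mock groups did not overlap for 51 members at T4 and 56 at T24, against 21.4% and 32.2% of all genes. Within the slides, 46, 46 and 45 of the 46 calls at T4 and 65, 62 and 65 of the 65 calls at T24 had the direction of the fit. The slides split the arrays of that fit, with 1 or 2 arrays a side, so this is not a separate test. Stimulated and mock arrays of a slide came from different rabbits at each time. Of 55 called pairs of a gene and a comparison that rested on more than 1 kept probe, 54 had every kept probe in the same direction. The gene value averages these same probes, so this agreement is a description. In 24 of the 56 members with 2 or more placed probes, all probes overlapped their neighbour.

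**Figure D1:**
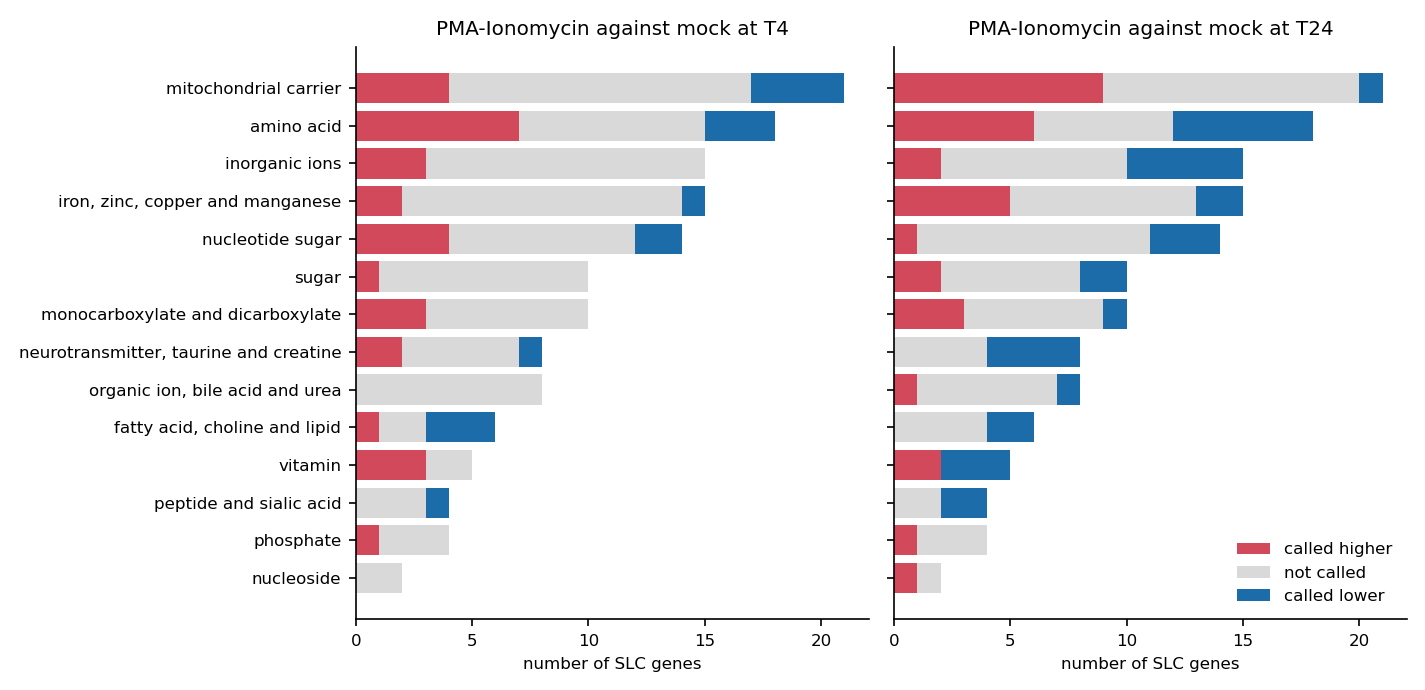
Number of SLC genes per transport class that were called higher, called lower or not called after PMA-Ionomycin against mock at T4 and at T24. The amino acid families, which include the nucleobase carrier SLC43A3, changed from 7 higher and 3 lower of 18 at T4 to 6 and 6 at T24, and mitochondrial carriers from 4 and 4 of 21 to 9 higher and 1 lower. Of detected genes 21.4% were called higher and 15.2% lower at T4, and 35.2% and 17.8% at T24. SLC25A30, counted higher at T4, and SLC45A2, counted higher at T24, were members through the PMA-Ionomycin group of that time alone.

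Amino acid carriers were among the genes that rose at T4, with SLC7A1 and SLC1A5 among the 8 largest named rises. Of 30 SLC genes on the array from amino acid carrier families 18 were members, SLC43A3 among them, and 7 of these rose at T4 while SLC66A3, SLC38A9 and SLC36A4 fell, with a class median log2 FC of 0.56. Of detected genes 21.4% were called higher and 15.2% lower at T4, and 35.2% and 17.8% at T24. These shares are the background of every class and list count after PMA-Ionomycin below. SLC7A5, the light chain of LAT1, read 8.01, 7.82, 6.96 and 6.58 in rabbits 1, 2, 4 and 5 in mock T4 cells and 9.36, 9.04, 9.11 and 8.44 in PMA-Ionomycin T4 cells. The PMA-Ionomycin arrays lay above all mock arrays (log2 FC = 1.65 ± 0.36, adjusted p = 0.00139, 3.13-fold). Its partner SLC3A2 read 4.59, 5.21, 4.90 and 4.56 in mock and 6.46, 6.10, 7.02 and 5.87 in PMA-Ionomycin cells. These groups did not overlap either (log2 FC = 1.55 ± 0.31, adjusted p = 0.000516, 2.92-fold).

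At T24 the heavy and the light chain parted. SLC7A5 read 5.23, 4.68, 4.13 and 3.67 in mock and 6.81, 6.41, 6.71 and 6.32 in PMA-Ionomycin cells, a rise in 4 of 4 rabbits without overlap (log2 FC = 2.14 ± 0.36, adjusted p = 4.64e-05). SLC3A2 read 5.26, 5.08, 4.32 and 4.24 in mock and 3.96, 3.34, 3.95 and 3.86 in PMA-Ionomycin cells, so every stimulated array lay below every mock array (log2 FC = -0.95 ± 0.31, adjusted p = 0.0188). That fall missed the threshold when a rabbit was left out (adjusted p = 0.0878 and 0.195 without rabbits 1 and 2 in turn). The change of the PMA-Ionomycin effect from T4 to T24, tested as an interaction, was -2.50 ± 0.44 for SLC3A2 (adjusted p = 0.00014). For SLC7A5 it was 0.49 ± 0.52 (adjusted p = 0.639), which did not pass.

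The higher ratio of SLC7A5 at T24 was set against a lower mock level. In mock culture SLC7A5 fell by 2.91 on the log2 scale from T4 to T24 (SE 0.36, adjusted p = 4.56e-06), with within-rabbit differences of -3.14 to -2.78. The PMA-Ionomycin level itself was 8.99 ± 0.39 at T4 and 6.56 ± 0.24 at T24, below the T4 mock level of 7.34 ± 0.68. In order of mean level the groups ran from PMA-Ionomycin T4 through mock T4, LPS T4 (7.10 ± 0.67), PMA-Ionomycin T24 and LPS T24 (5.72 ± 0.58) to mock T24 (4.43 ± 0.68). PMA-Ionomycin T4 stood clear of mock T4, while each of the other neighbours in this order overlapped.

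The glutamine carriers SLC1A5 and SLC38A2 and the cationic amino acid carriers SLC7A1 and SLC7A6 were also called higher at T4. SLC1A5 (ASCT2) read 3.85, 4.25, 4.09 and 3.11 in mock and 5.73, 5.32, 5.96 and 5.43 in PMA-Ionomycin T4 cells, with no overlap (log2 FC = 1.78 ± 0.30, adjusted p = 8.87e-05). At T24 its log2 FC was 0.49 ± 0.30 with 2 of 4 rabbits higher (adjusted p = 0.256), which did not pass. SLC7A1, the arginine and lysine carrier CAT1, read 0.49, 0.49, 0.41 and 0.03 in mock and 2.71, 2.49, 3.01 and 2.38 in PMA-Ionomycin cells at T4 (log2 FC = 2.29 ± 0.16, adjusted p = 1.9e-10). All 4 stimulated arrays lay above every mock array. At T24 mock SLC7A1 was not well above background on any array, and the stimulated level was at least 2.2-fold higher (adjusted p = 2.37e-06). SLC38A2 (SNAT2) rose at T4 (log2 FC = 1.08 ± 0.19, adjusted p = 0.000134) and had a log2 FC of -0.16 ± 0.19 at T24 (adjusted p = 0.654).

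**Figure D2:**
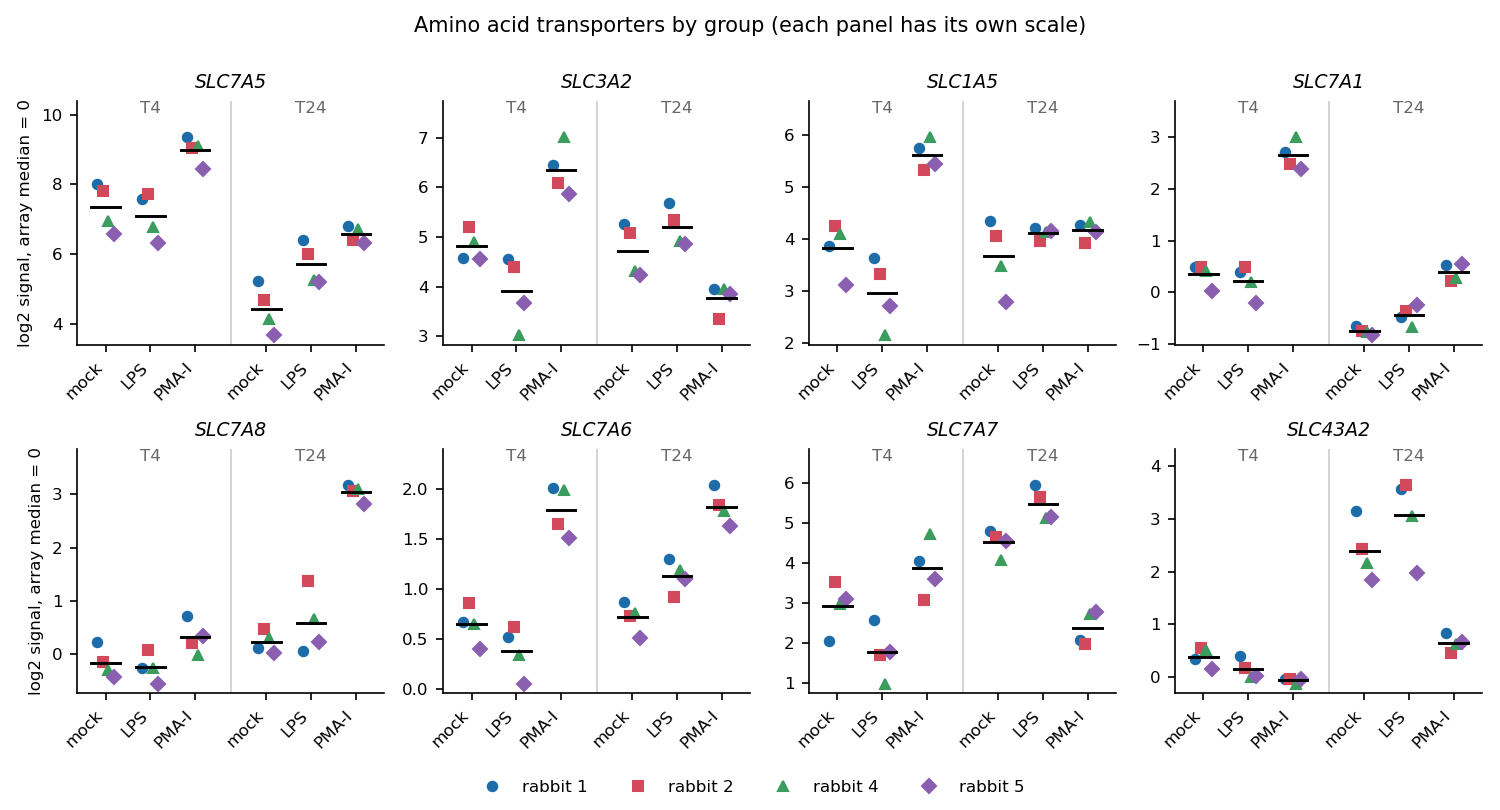
Levels of 8 amino acid transporters in 6 groups (log2 signal, array median at 0), 1 marker per rabbit and a line at the group mean, with PMA-I standing for PMA-Ionomycin. SLC7A5 and SLC3A2 were both highest in PMA-Ionomycin T4 cells, while at T24 SLC7A8 rose and SLC7A7 and SLC43A2 fell.

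SLC7A8 (LAT2) was the largest rise of any member at T24. Its 6 probes read 0.12, 0.48, 0.31 and 0.03 on average in mock and 3.18, 3.06, 3.10 and 2.82 in PMA-Ionomycin cells, far apart in every rabbit (log2 FC = 2.81 ± 0.22, adjusted p = 4.67e-10, 7-fold). At T4 its log2 FC was 0.47 ± 0.22 (adjusted p = 0.145, 4 of 4 rabbits higher), and the interaction was 2.33 ± 0.31 (adjusted p = 4.86e-06). The 5 downstream probes overlap in steps of 1 base and gave 3.22 to 3.41 at T24, so they are 1 measurement of 1 site. The upstream probe stayed below background and gave 0.09.

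SLC7A7 and SLC7A6, the exchangers whose probes share the 20-base run above, went apart at T24. SLC7A7 read 4.80, 4.66, 4.08 and 4.56 in mock and 2.07, 1.97, 2.74 and 2.76 in PMA-Ionomycin cells, with all 4 stimulated arrays lower (log2 FC = -2.14 ± 0.35, adjusted p = 2.59e-05, 4.4-fold lower). At T4 it read 2.06, 3.53, 2.97 and 3.10 in mock and 4.04, 3.08, 4.73 and 3.60 in PMA-Ionomycin cells. Those groups overlapped, with 3 of 4 rabbits higher and a log2 FC of 0.95 ± 0.35 (adjusted p = 0.0517). This passed with dim probes left out (0.0352), with single probes (0.0499) and without rabbit 2 (0.0169). The interaction, -3.09 ± 0.49, was the most negative of any member (adjusted p = 4.62e-05).

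As a gene SLC7A6 was called higher at T4 (log2 FC = 1.14 ± 0.14, adjusted p = 2.01e-06) and at T24 (log2 FC = 1.10 ± 0.14, adjusted p = 1.39e-06), but its probes disagreed. At T24 the 5 overlapping downstream probes gave log2 FCs of 1.52 to 1.69, and the upstream probe gave -1.46. In LPS T4, LPS T24, PMA-Ionomycin T4 and PMA-Ionomycin T24 cells against mock, the upstream probe differed by -0.72, 0.86, 0.93 and -1.46. The SLC7A7 probe differed by -1.15, 0.94, 0.95 and -2.14, in the same order of signs. Whether the upstream probe also captured SLC7A7 transcripts was not tested, and the gene value of SLC7A6 mixes both patterns.

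SLC43A2 (LAT4), which carries branched-chain amino acids, read 3.16, 2.43, 2.17 and 1.84 in mock and 0.83, 0.45, 0.62 and 0.66 in PMA-Ionomycin T24 cells, a fall without overlap (log2 FC = -1.76 ± 0.27, adjusted p = 1.12e-05). In mock culture it had risen from 0.33, 0.55, 0.51 and 0.15 at T4 (log2 FC = 2.01 ± 0.27, adjusted p = 1.04e-05). SLC43A3, of the same family and known as a purine nucleobase carrier, rose at T4 (log2 FC = 1.43 ± 0.18, adjusted p = 2.59e-06) and fell at T24 (log2 FC = -0.49 ± 0.18, adjusted p = 0.0439). SLC36A4 did the opposite, with -0.51 ± 0.13 at T4 and 0.37 ± 0.13 at T24 (adjusted p = 0.00534 and 0.0288). SLC38A9, the lysosomal arginine sensor of the mTORC1 kinase, fell at T4 (log2 FC = -0.74 ± 0.17, adjusted p = 0.00195).

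Genes that work beside amino acid carriers were read from lists, whose probes were named in the same way. Beside their counts stand the detected genes, 21.4% higher and 15.2% lower at T4, and 35.2% and 17.8% at T24. Of 18 genes of the amino acid response, the programme that ATF4 drives when amino acids run short, 8 were found. At T4 5 of them rose after PMA-Ionomycin (CHAC1, PSAT1, SESN2, CEBPG and ATF3) and none fell. ATF3, a stress-induced transcription factor, had a log2 FC of 3.56 ± 0.29 (adjusted p = 3.77e-09). At T24 CHAC1, PSAT1 and PHGDH were called higher, with 3.28 ± 0.30 for PSAT1, an enzyme of serine synthesis (adjusted p = 5.86e-09).

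Of 20 enzymes of glutamine, polyamine and one-carbon metabolism 12 were found, and 4 rose at T4 and 7 at T24, with a median log2 FC of 0.64 and 1.82. SAT1, which breaks polyamines down, fell at T24. TYMS, thymidylate synthase, gave 3.78 ± 0.20 at T24 (adjusted p = 1.26e-12), and ODC1, which starts polyamine synthesis, gave 1.78 ± 0.42 (adjusted p = 0.00171). Of 20 genes of mTORC1 amino acid sensing 11 were found, with 1 higher and 2 lower at T4 and 3 each way at T24. RRAGC, a GTPase of that pathway, was 0.84 ± 0.23 at T4 and -1.07 ± 0.23 at T24 (adjusted p = 0.00872 and 0.000699). Of 11 partners and regulators of transporters 8 were found. EMB, SGK1, SGK3 and ANKH rose at T4 while TXNIP and ARRDC3 fell, and at T24 SGK1 rose while TXNIP, ARRDC3 and NEDD4L fell. SGK1, a kinase that keeps carriers at the cell surface, had the values 3.81 ± 0.18 at T4 and 1.95 ± 0.18 at T24 (adjusted p = 4.98e-13 and 6.1e-09).

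Among the 21 mitochondrial carriers, 4 rose and 4 fell at T4, and 9 rose and 1 fell at T24. The shares of detected genes were 21.4% higher and 15.2% lower at T4, and 35.2% and 17.8% at T24. SLC25A30, 1 of the 4 that rose at T4, was a member through PMA-Ionomycin T4 alone. SLC25A33, which imports pyrimidine nucleotides, was the largest rise of any member at T4. It read 0.56, 0.23, 0.06 and 0.16 in mock and 3.12, 2.69, 3.50 and 3.37 in PMA-Ionomycin cells, 2.46 to 3.44 higher within a rabbit (log2 FC = 2.92 ± 0.21, adjusted p = 5.86e-10, 7.55-fold). At T24 it was still higher (log2 FC = 1.11 ± 0.21, adjusted p = 0.00017). SLC25A32, the mitochondrial folate carrier, read 0.26, 0.07, 0.31 and 0.25 in mock and 1.75, 1.78, 1.61 and 1.66 in PMA-Ionomycin T24 cells, with no overlap (log2 FC = 1.48 ± 0.12, adjusted p = 9.15e-10).

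SLC25A12, the aspartate and glutamate carrier, turned direction. It read 2.31, 2.21, 2.08 and 2.50 in mock and 0.79, 0.36, 1.02 and 0.98 in PMA-Ionomycin cells at T4, where all stimulated arrays were lower (log2 FC = -1.49 ± 0.21, adjusted p = 7.99e-06). At T24 it read 2.53, 2.86, 3.17 and 3.51 in mock and 4.29, 4.31, 3.96 and 3.92 in PMA-Ionomycin cells, where all were higher (log2 FC = 1.10 ± 0.21, adjusted p = 0.00016). Its interaction, 2.59 ± 0.29, was the highest of the members (adjusted p = 5.52e-07). The phosphate carrier SLC25A3 rose at T24 (log2 FC = 1.06 ± 0.15, adjusted p = 3.84e-06). The NAD carrier SLC25A51 fell at both times (-0.56 ± 0.19 and -0.54 ± 0.19, adjusted p = 0.0317 and 0.0258), and the iron carrier SLC25A28 (mitoferrin-2) fell at T4 (log2 FC = -1.06 ± 0.30, adjusted p = 0.0106, or 0.0714 without rabbit 2).

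**Figure D3:**
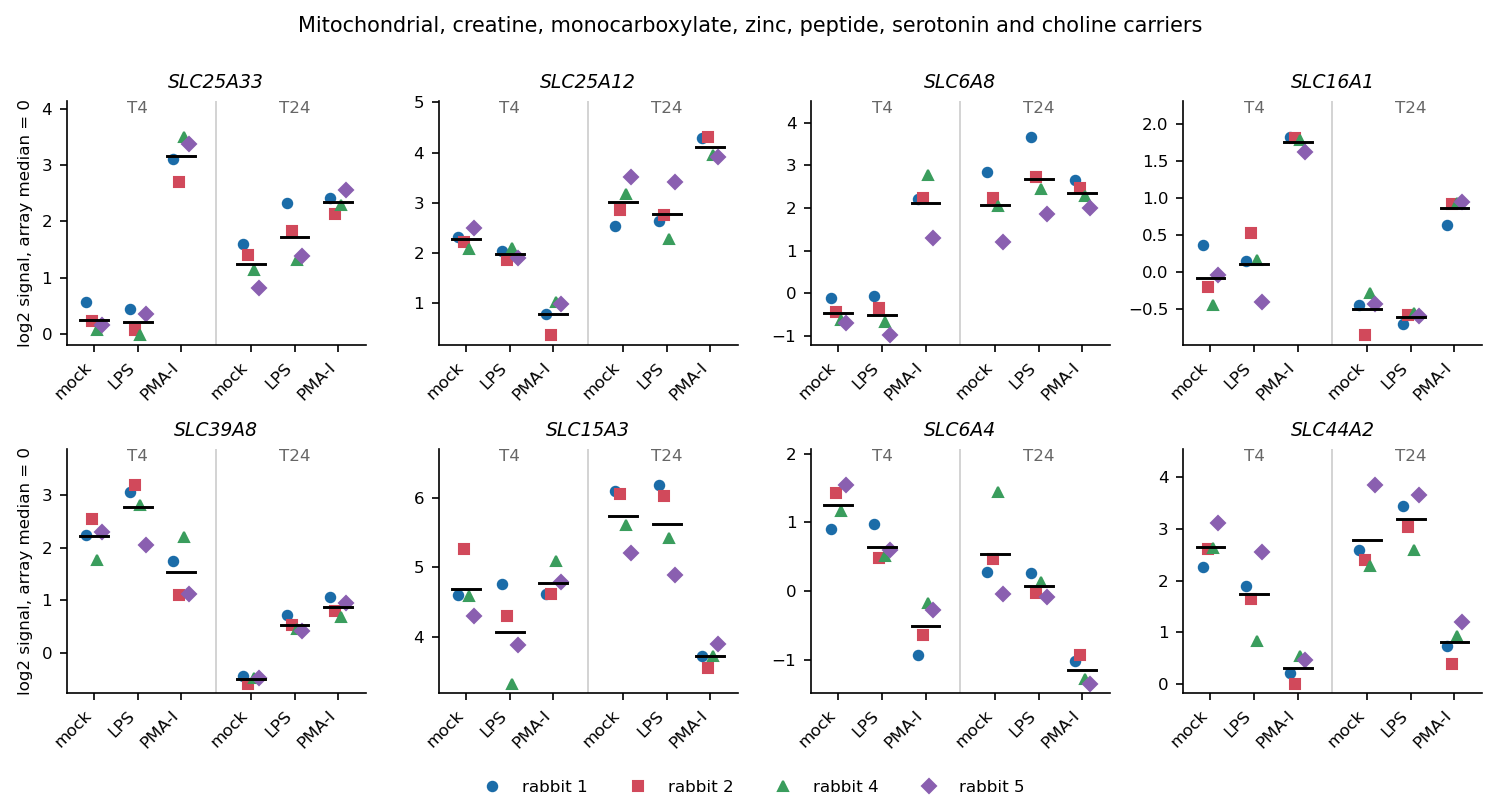
Levels of 8 further SLC genes in 6 groups (log2 signal, array median at 0), 1 marker per rabbit and a line at the group mean, with PMA-I standing for PMA-Ionomycin. SLC25A12 lay below mock at T4 and above it at T24 after PMA-Ionomycin, and SLC6A4 and SLC44A2 lay below mock at both times.

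Of 8 carriers of neurotransmitters, taurine and creatine, 2 rose and 1 fell at T4 and 4 fell at T24. SLC6A8, the creatine transporter, read -0.11, -0.43, -0.62 and -0.70 in mock and 2.21, 2.24, 2.77 and 1.30 in PMA-Ionomycin T4 cells, without overlap (log2 FC = 2.59 ± 0.35, adjusted p = 4.22e-06, 6.04-fold). In mock culture it rose to 2.84, 2.25, 2.05 and 1.20 at T24 (log2 FC = 2.55 ± 0.35, adjusted p = 1.37e-05), and PMA-Ionomycin T24 cells averaged 2.35 ± 0.28. Those 2 groups at T24 overlapped, and the interaction was -2.33 ± 0.49 (adjusted p = 0.000938). SLC18B1, a vesicular polyamine carrier, rose at T4 (0.69 ± 0.21) and fell at T24 (-0.62 ± 0.21, adjusted p = 0.0206 and 0.0261).

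Of 10 carriers of monocarboxylates and dicarboxylates, 3 rose at both times, and SLC16A13, a member through the mock groups alone, was called lower at T24. SLC16A1 (MCT1), a lactate and pyruvate carrier, read 0.37, -0.20, -0.44 and -0.03 in mock and 1.83, 1.81, 1.79 and 1.63 in PMA-Ionomycin cells at T4 (log2 FC = 1.84 ± 0.17, adjusted p = 2.27e-08). At T24 it read -0.45, -0.86, -0.29 and -0.43 and 0.64, 0.92, 0.93 and 0.94 (log2 FC = 1.37 ± 0.17, adjusted p = 6.75e-07). The stimulated arrays lay above all mock arrays at both times. SLC16A10, which carries aromatic amino acids, and SLC16A6 were the others that rose at both times. Their log2 FCs at T4 were 1.26 ± 0.34 and 1.13 ± 0.24. The call of SLC16A6 at T24 (log2 FC = 0.88 ± 0.24, adjusted p = 0.00513) was lost when a rabbit was left out (adjusted p = 0.0991 and 0.0877 without rabbits 4 and 5 in turn).

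Vitamin carriers went both ways at T24. SLC5A6, which takes up biotin and pantothenate, read 2.10, 2.77, 1.79 and 2.49 in mock and 3.83, 3.47, 3.68 and 3.71 in PMA-Ionomycin cells, higher in 4 of 4 rabbits (log2 FC = 1.39 ± 0.17, adjusted p = 4.99e-07). SLC19A1, the reduced folate carrier, rose too (log2 FC = 1.15 ± 0.16, adjusted p = 3.26e-06). The proton-coupled folate carrier SLC46A1 read 1.12, 0.88, -0.20 and 0.14 in mock and -0.86, -0.59, -1.05 and -1.05 in PMA-Ionomycin cells. No stimulated array was well above background, so the fall is given as at least 2.54-fold (adjusted p = 0.000115). SLC46A1 and its relative SLC46A3, also called lower, were members through mock T24 and LPS T24 alone, so their falls rest in part on the values that chose them. SLC23A2, a vitamin C carrier, rose at T4 (log2 FC = 0.99 ± 0.28, adjusted p = 0.012, lost with adjusted p = 0.0831 and 0.0656 without rabbits 1 and 4 in turn) and fell at T24 (log2 FC = -1.08 ± 0.28, adjusted p = 0.00387, lost with adjusted p = 0.0718 without rabbit 2).

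Zinc carriers moved in both directions. Of 15 metal carriers, SLC39A6 and SLC30A5 rose and SLC39A8 fell at T4, and 5 rose and 2 fell at T24. SLC39A6 (ZIP6), a zinc importer of the cell surface, read 1.94, 1.48, 1.24 and 1.75 in mock and 3.97, 3.47, 4.57 and 4.15 in PMA-Ionomycin T4 cells, all higher (log2 FC = 2.43 ± 0.28, adjusted p = 4.51e-07). SLC39A8 (ZIP8), an importer of zinc and manganese, fell at T4 in 3 of 4 rabbits (log2 FC = -0.67 ± 0.23, adjusted p = 0.0351), and this call was lost when a rabbit was left out (adjusted p = 0.0992, 0.369 and 0.15 without rabbits 1, 2 and 5 in turn), with only the arrays of the comparison (0.105) and with single probes (0.0786). At T24 it read -0.43, -0.58, -0.48 and -0.48 in mock and 1.07, 0.79, 0.68 and 0.95 in PMA-Ionomycin cells, higher without overlap (log2 FC = 1.36 ± 0.23, adjusted p = 3.7e-05). Its mock level had dropped by 2.70 on the log2 scale from T4 (SE 0.23, adjusted p = 2.43e-08). The 4 other metal carriers that rose at T24 were the zinc exporters SLC30A5, SLC30A4, SLC30A6 and SLC30A9, of which SLC30A5 had the log2 FC 0.76 ± 0.14 (adjusted p = 0.000146) and SLC30A6 and SLC30A9 0.40 ± 0.12 and 0.39 ± 0.12. SLC30A4 was above background on 2 of 4 stimulated and no mock arrays, at least 1.34-fold higher. SLC39A10 (ZIP10) and the iron carrier SLC11A2 (DMT1) fell (-1.33 ± 0.20 and -0.96 ± 0.20). Of 16 genes of iron, zinc and copper handling 9 were found, with 1 higher at T4 (IREB2) and 1 higher (IREB2) and 2 lower (CP and ACO1) at T24.

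Single carriers of inositol, phosphate and other ions also rose at T4. SLC5A3, the myo-inositol carrier, read -0.52, -0.67, -0.32 and -0.12 in mock and 1.73, 0.77, 2.21 and 2.07 in PMA-Ionomycin T4 cells, without overlap (log2 FC = 2.10 ± 0.26, adjusted p = 1.16e-06). The phosphate carrier SLC20A1 (log2 FC = 1.77 ± 0.24, adjusted p = 6.31e-06) and the bicarbonate carrier SLC4A7 (log2 FC = 1.31 ± 0.17, adjusted p = 3.09e-06) rose at T4 and were not called at T24. SLC12A2, the sodium, potassium and chloride cotransporter, was called higher at both times (0.53 ± 0.10 and 0.27 ± 0.10), the latter lost under 8 of 15 alternatives. Its adjusted p was 0.367 with the deposited table, where the log2 FC was 0.12, 0.283 with the processed signal, 0.138 with only the arrays of the comparison, 0.178 with single probes and 0.0656 with normexp, and without rabbits 1, 2 and 4 in turn it was 0.175, 0.291 and 0.157. Of 14 genes of the nucleotide sugar family SLC35, 4 rose and 2 fell at T4, and 1 rose and 3 fell at T24. SLC35G1 read 0.58, 0.10, 0.06 and 0.42 in mock and 3.56, 2.64, 1.76 and 3.62 in PMA-Ionomycin T4 cells (log2 FC = 2.61 ± 0.27, adjusted p = 1.29e-07) and rose again at T24 (log2 FC = 1.65 ± 0.27, adjusted p = 2.81e-05). SLC35A2, which brings UDP-galactose into the Golgi, rose at T4 (log2 FC = 0.97 ± 0.23, adjusted p = 0.00242), and SLC35B3, which carries the sulfate donor PAPS, fell (log2 FC = -0.98 ± 0.11, adjusted p = 5.63e-07).

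Falls after PMA-Ionomycin included carriers of lysosomes, platelets and choline. SLC44A2, a choline carrier, read 2.26, 2.62, 2.63 and 3.12 in mock and 0.21, 0.01, 0.55 and 0.47 in PMA-Ionomycin T4 cells (log2 FC = -2.34 ± 0.33, adjusted p = 8.39e-06). At T24 it read 2.60, 2.41, 2.28 and 3.85 and 0.74, 0.38, 0.93 and 1.20 (log2 FC = -1.97 ± 0.33, adjusted p = 3.6e-05). At both times all stimulated arrays lay below all mock arrays. Of the 6 carriers of fatty acids, choline and lipids, SLC27A2 and SLC27A3, acyl-CoA synthetases of fatty acid uptake, also fell at T4 (-0.78 ± 0.22 and -0.46 ± 0.15), and SLC44A1 rose (0.69 ± 0.17). Each of these 3 calls was lost when a rabbit was left out, with adjusted p = 0.0838 without rabbit 2 and 0.0695 without rabbit 4 for SLC27A2. For SLC27A3 the values were 0.0672 without rabbit 2, 0.116 without rabbit 4, 0.193 without rabbit 5 and 0.0611 with only the arrays of the comparison, and for SLC44A1 they were 0.0567 without rabbit 4 and 0.0541 without rabbit 5.

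SLC6A4, the serotonin transporter that platelets carry, read 0.91, 1.43, 1.16 and 1.54 in mock and -0.92, -0.63, -0.17 and -0.27 in PMA-Ionomycin T4 cells (log2 FC = -1.75 ± 0.23, adjusted p = 3.38e-06). At T24 it read 0.28, 0.47, 1.44 and -0.03 in mock, and no PMA-Ionomycin array was well above background, so that it was at least 2.9-fold lower (adjusted p = 2.68e-06). Rabbits differed in its mock T24 level. Of 8 platelet markers 4 were found, and 3 of them fell at T4 after PMA-Ionomycin. Their log2 summed level ran from 5.57 to 6.92 in mock T4 and from 3.02 to 4.36 in PMA-Ionomycin T4 cells. At T24 it ran from 1.93 to 2.75 in mock and from 2.45 to 3.33 in PMA-Ionomycin cells, where 1 marker (TUBB1) was higher and none lower. GP1BA was on no array above background in any group. The part of platelets in the SLC6A4 values was not tested.

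SLC15A3, a lysosomal carrier of peptides and histidine, read 6.10, 6.06, 5.61 and 5.20 in mock and 3.73, 3.54, 3.73 and 3.90 in PMA-Ionomycin T24 cells, a fall in all 4 rabbits (log2 FC = -2.02 ± 0.29, adjusted p = 4.08e-06, 4.05-fold lower). SLC17A9, which loads nucleotides into vesicles and lysosomes, fell as well (log2 FC = -1.67 ± 0.17, adjusted p = 3.13e-08). SLC17A5 (sialin), which exports sialic acid from lysosomes, fell at T4 (log2 FC = -0.75 ± 0.19, adjusted p = 0.00513, lost with adjusted p = 0.0714 without rabbit 4) and at T24 (log2 FC = -0.77 ± 0.19, adjusted p = 0.00274). SLC66A3 fell at both times (-1.45 ± 0.28 and -1.31 ± 0.28), and SLC22A23 fell at T24 (log2 FC = -1.36 ± 0.30, adjusted p = 0.000839). SLC5A2, a glucose carrier known from the kidney, was lower at T24 in 3 of 4 rabbits (log2 FC = -2.10 ± 0.61, adjusted p = 0.00874). It was named after its values were seen.

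Of the 8 named largest falls at T24, SLC7A7, SLC15A3, SLC43A2, SLC17A9 and SLC46A1 were called higher in mock T24 than in mock T4 cells, the first 4 by 1.61 ± 0.35, 1.06 ± 0.29, 2.01 ± 0.27 and 1.67 ± 0.17 on the log2 scale (adjusted p = 0.00228, 0.0138, 1.04e-05 and 2.99e-07) and SLC46A1 at least 2.46-fold (adjusted p = 0.000244). The rise of SLC15A3 was lost when a rabbit was left out (adjusted p = 0.0958 and 0.0607 without rabbits 1 and 4 in turn). Of the other 3, SLC6A4 was called lower in mock culture (log2 FC = -0.72 ± 0.23, adjusted p = 0.0408, lost with adjusted p = 0.0997, 0.269 and 0.373 without rabbits 1, 2 and 5 in turn), and SLC44A2 and SLC22A23 were not called. SLC46A1 was a member through mock T24 and LPS T24 alone. Of 15 monocyte markers 8 were found, 5 rose in mock culture from T4 to T24, and 6 fell after PMA-Ionomycin at T24 (CD14, CSF1R, CD68, VCAN, CYBB and MPEG1). CSF1R, the receptor of the monocyte growth factor, was -3.29 ± 0.35 (adjusted p = 7.48e-08). The log2 summed monocyte level ran from 8.48 to 9.78 in mock T24 and from 6.14 to 7.05 in PMA-Ionomycin T24 cells. LPS T24 cells ran from 8.29 to 9.52, and 1 of the 8 markers (MPEG1) was called lower after LPS at T24. At T4 it ran from 7.18 to 8.39 in mock, 6.14 to 6.87 in LPS and 5.73 to 6.57 in PMA-Ionomycin cells. VCAN was on no array above background in PMA-Ionomycin T24 cells, and MPEG1 on none in PMA-Ionomycin T4 cells. The part of monocyte numbers in the falls of these 8 carriers was not tested.

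Markers of monocytes, B cells and T cells were found above background in every group, as the label PBMC implies. The 9 T cell markers found of 13 had summed levels from 3.61 to 4.65 over all arrays, with CD28 on no array above background in 5 of the 6 groups and CD4 in 3. After PMA-Ionomycin CD28 was called higher at T4, and CD5 was higher and CD247 and CD4 lower at T24, while in mock culture CD247 and ZAP70 fell. CD247 and CD4 were on no array above background in PMA-Ionomycin T24 cells, and mock T24 levels of CD4 ran from -0.64 to 2.26. Of 6 B cell markers found of 9, 4 fell and 1 rose after PMA-Ionomycin at both T4 and T24. The 1 NK cell marker found of 6 (PRF1) fell at T4 and rose at T24 after PMA-Ionomycin. Of 4 neutrophil markers found of 9, MPO and CAMP were higher in mock T24 than in mock T4 cells and lower after LPS and after PMA-Ionomycin at T24, and CAMP also fell after PMA-Ionomycin at T4. The part of these cells in the SLC values was not tested.

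Time altered the PMA-Ionomycin effect for 39 members (27.9%), 12 upward and 27 downward, where 22.6% of all genes (14.4% upward, 8.17% downward) and 36.3% of detected genes (23.4% upward, 12.9% downward) had such an interaction. Of the members, 13 were called higher at both times and 7 lower at both. Another 5 were higher at T4 and lower at T24 (SLC18B1, SLC23A2, SLC3A2, SLC43A3 and SLC8B1), and 4 the reverse (SLC25A12, SLC25A40, SLC36A4 and SLC39A8). All 9 of these had a called interaction. Of the 17 members called at T4 alone 9 had a called interaction, and of the 36 called at T24 alone 18 did, so for the others the change with time is not shown.

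**Figure D4:**
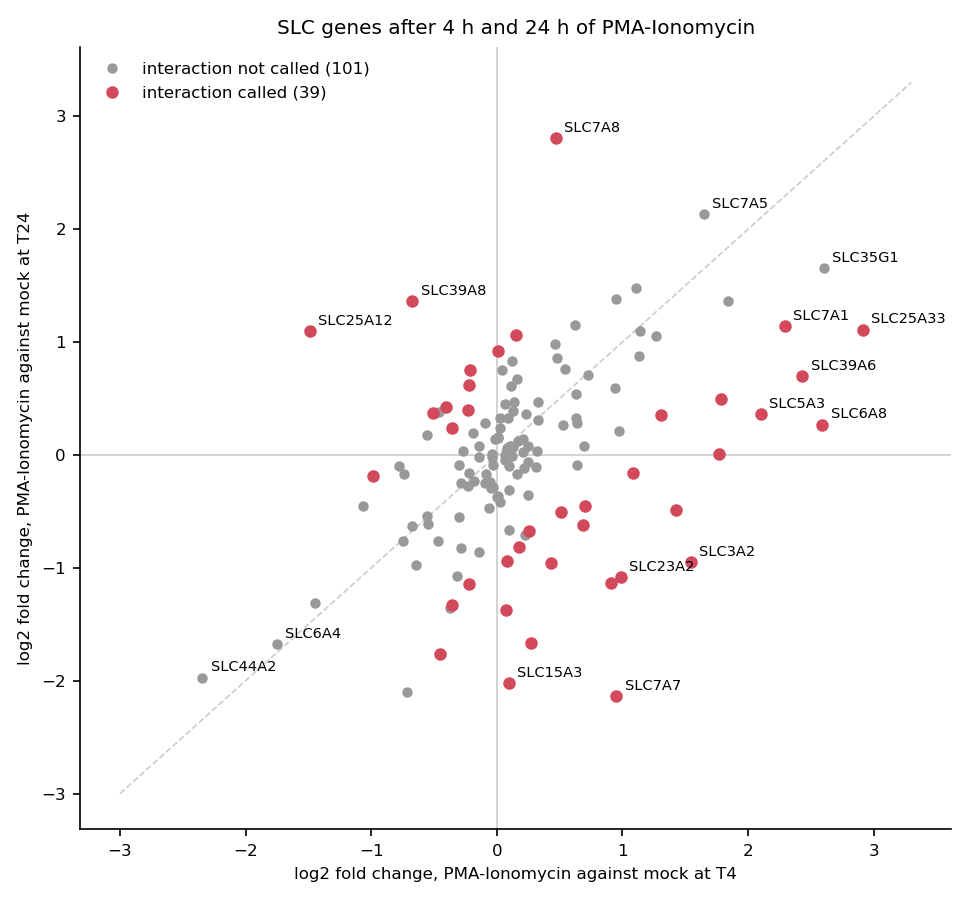
Log2 fold change of the 140 SLC genes after PMA-Ionomycin against mock, at T4 on the x axis and at T24 on the y axis, 1 point per gene, with the 39 genes whose interaction was called in red. SLC25A33 lies farthest right, at 2.92 and 1.11, and SLC7A8 highest, at 0.47 and 2.81.

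Culture alone changed SLC genes, which sets the base for the T24 ratios above. Between mock T4 and mock T24, 42 members (30%) were called, 35 higher and 7 lower, where 12.6% of all genes (7.43% higher, 5.15% lower) and 20% of detected genes (12.1% higher, 7.89% lower) were called. Without rabbit 2, 27 members were called higher and 4 lower. With the processed signal the members split into 31 higher and 7 lower, while all genes turned from 2140 higher and 1483 lower to 1700 and 1779. Of the 80 members detected in every group, 18 were higher and 2 lower. The median log2 FC was 0.08 over the members and -0.06 over all genes, and all 42 calls held their direction within each slide. The slides split the arrays of the fit, so this is a description and not a separate test. After SLC6A8 and SLC43A2, the largest rises were SLC38A6 (log2 FC = 1.86 ± 0.28, adjusted p = 4.25e-05), SLC18B1 (log2 FC = 1.78 ± 0.21, adjusted p = 2.73e-06) and SLC17A9 (log2 FC = 1.67 ± 0.17, adjusted p = 2.99e-07). After SLC7A5 and SLC39A8, the largest falls were SLC10A4, at least 2.06-fold lower (adjusted p = 5e-06) and a member through mock T4 and PMA-Ionomycin T4 alone, SLC7A1, at least 2.15-fold lower (adjusted p = 2.11e-05), and SLC27A2 (log2 FC = -1.03 ± 0.22, adjusted p = 0.00237), the last with adjusted p = 0.0541 without rabbit 2.

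LPS moved few SLC genes past the threshold. At T4, 1 member was called, lower, where 1.02% of all genes (0.0556% higher, 0.969% lower) and 1.66% of detected genes were called. An unadjusted p under 0.05 was found for 26 of 140 members, 13.9% of all genes and 18.6% of detected genes. The median log2 FC was -0.04 over the members and 0.06 over all genes. SLC12A4 (KCC1), the potassium and chloride cotransporter, read 1.24, 1.52, 1.63 and 1.65 in mock and 0.74, 0.63, 0.27 and 0.78 in LPS T4 cells, lower in all rabbits and without overlap (log2 FC = -0.91 ± 0.19, adjusted p = 0.0314). It missed the threshold whichever rabbit was left out (adjusted p = 0.0555, 0.198, 0.436 and 0.0775 without rabbits 1, 2, 4 and 5 in turn) and with the processed signal (0.0611), the deposited table (0.0555) and only the arrays of the comparison (0.229). Over all genes 0 were called higher and 0 lower without rabbit 2, without rabbit 4 or with only those arrays.

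At T24, 1 member was called, higher, where 1.22% of all genes (0.639% higher, 0.583% lower) and 1.99% of detected genes were called. An unadjusted p under 0.05 was found for 26 of 140 members, 10.9% of all genes and 16.8% of detected genes. The median log2 FC was 0.03 over the members and -0.03 over all genes. SLC39A8 read -0.43, -0.58, -0.48 and -0.48 in mock and 0.72, 0.53, 0.46 and 0.43 in LPS T24 cells, between 0.90 and 1.15 higher within each rabbit (log2 FC = 1.03 ± 0.23, adjusted p = 0.0211). That call was lost when a rabbit was left out (adjusted p = 0.179, 0.163 and 0.102 without rabbits 1, 2 and 4 in turn) and with normexp (0.0793). At T4 the same gene read 3.06, 3.19, 2.82 and 2.04 in LPS cells, which overlapped the mock arrays.

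The rabbits pair the samples, and with rabbit as a block in the fit more LPS effects passed. The block raised the calls from 1 to 6 at T4, all lower, and from 1 to 8 at T24, 5 higher and 3 lower. In the same fit 4.27% of all genes and 6.86% of detected genes passed at T4, and 2.61% and 4.2% at T24, so calls were gained over all genes as well. At T4 the choline carrier SLC44A2 (-0.92 ± 0.33, adjusted p = 0.179 without and 0.0299 with the block) and SLC66A3 (-0.79 ± 0.28, 0.165 without and 0.0244 with it) joined SLC12A4, whose adjusted p became 0.0178. The mitochondrial carriers SLC25A11 and SLC25A51 (-0.81 ± 0.21 and -0.66 ± 0.19, adjusted p = 0.0336 and 0.0358 with the block) and the UDP-sugar carrier SLC35B4 (-0.98 ± 0.26, 0.0336, 3 of 4 rabbits lower) were the others. Of the 8 monocyte markers, CD14 and CSF1R were also called lower at LPS T4 without the block, calls lost without rabbit 2, without rabbit 4 and with only the arrays of the comparison, and their part in these falls was not tested. LPS and PMA-Ionomycin were compared with the same mock arrays at each time.

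At T24 SLC7A5 read 6.40, 6.01, 5.27 and 5.21 in LPS cells against 5.23, 4.68, 4.13 and 3.67 in mock cells. The groups overlapped, yet each rabbit was 1.14 to 1.54 higher (log2 FC = 1.30 ± 0.36, adjusted p = 0.0892 without the block and 0.000303 with it). With the block SLC36A1, a lysosomal amino acid carrier (0.62 ± 0.18, adjusted p = 0.0082), SLC5A3 (0.72 ± 0.26, 0.0495) and the calcium exchanger SLC8A3 (at least 1.42-fold, 0.0302) were also higher. SLC8A3 was a member through LPS T24 alone, the group in which it is higher, so this value is a description. Sialin SLC17A5 (-0.62 ± 0.19, 0.0136), SLC35F5 (-0.94 ± 0.25, 0.0107) and the zinc importer SLC39A10 (-0.66 ± 0.20, 0.0361) were lower. SLC39A8 stayed higher at an adjusted p of 0.0116.

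**Figure D5:**
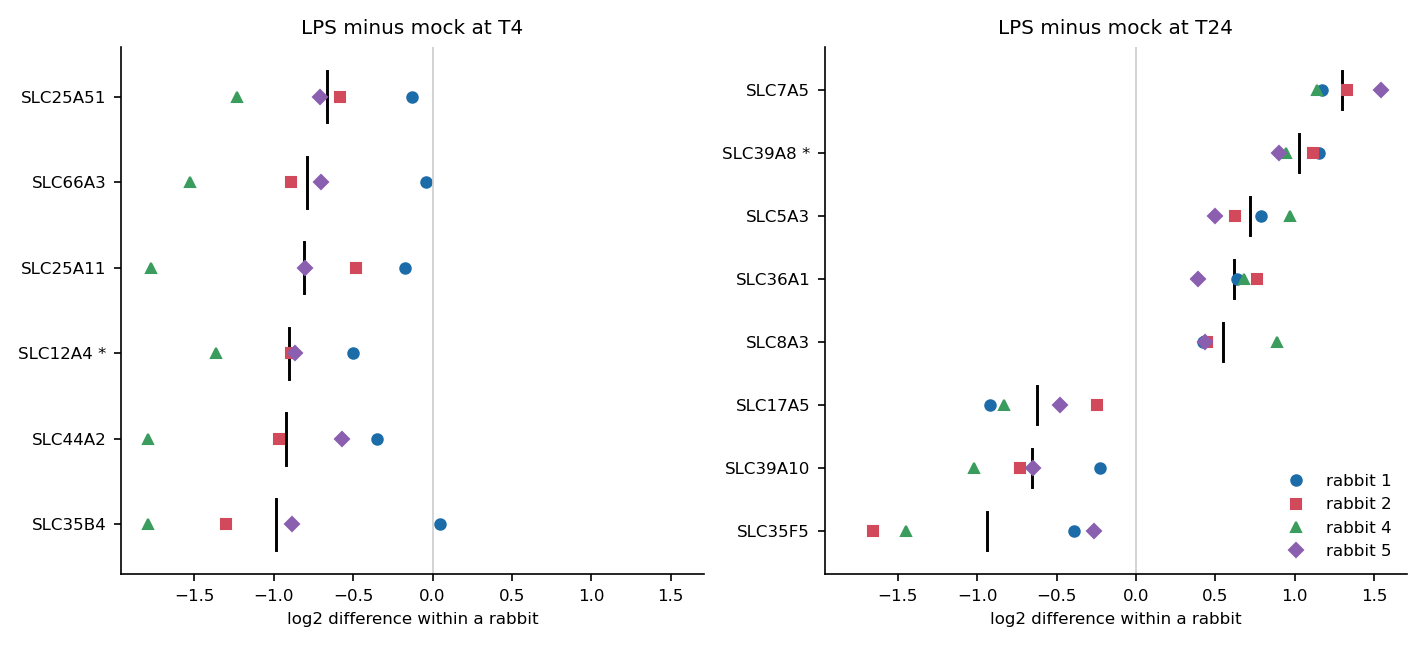
Within-rabbit log2 difference of LPS minus mock at T4 and T24 for the SLC genes called with rabbit as a block, 1 marker per rabbit and a black line at the mean, with a star at genes also called without the block. At T24 SLC7A5 was 1.14 to 1.54 higher in the 4 rabbits, and at T4 all 6 genes had negative means.

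The LPS effect changed between the times for 2 members, both upward, where 1.94% of all genes (1.71% upward, 0.24% downward) and 3.17% of detected genes did so. With the rabbit block it did so for 14 of 140 members, 5.76% of all genes and 9.33% of detected genes. SLC7A7 read 2.57, 1.70, 0.99 and 1.79 in LPS T4 cells and 5.95, 5.64, 5.12 and 5.14 in LPS T24 cells, below and above the mock means of 2.91 ± 0.62 and 4.52 ± 0.31 (interaction 2.09 ± 0.49, adjusted p = 0.0292). SLC35B4 gave 1.67 ± 0.37 (adjusted p = 0.0242). Both were lost when a rabbit was left out, SLC7A7 with adjusted p = 0.244, 0.16 and 0.108 without rabbits 2, 4 and 5 in turn and SLC35B4 with adjusted p = 0.231 and 0.248 without rabbits 2 and 4 in turn. The processed signal also ended both calls (0.0652 and 0.0612), and only the arrays of the comparison that of SLC35B4 (0.0559). The heavy chain SLC3A2 passed only with the block (1.38 ± 0.44, adjusted p = 0.0993 without and 0.0425 with it), as did SLC7A5 (1.54 ± 0.52, 0.12 and 0.00345) and SLC1A5 (1.32 ± 0.43, 0.109 and 0.0437).

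Of the gene lists beside the carriers, LPS lowered 3 of the 11 genes of mTORC1 sensing at T4 (MLST8, LAMTOR1 and LAMTOR4), where 0.969% of all genes were called lower. Like that of SLC12A4, these calls were lost without rabbit 2, without rabbit 4 and with only the arrays of the comparison. In mock culture 6 of these 11 rose from T4 to T24, while CHAC1, PSAT1 and PHGDH of the amino acid response fell. Of detected genes 12.1% were called higher and 7.89% lower in that comparison.

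Over the 6 groups, the group means of a member spanned 0.14 to 4.56 log2 units, with a median of 1.09. The span was at least 1 for 76 members and at least 2 for 26. The highest mean lay in PMA-Ionomycin T24 cells for 34 members, in PMA-Ionomycin T4 for 31, in LPS T24 for 27, in LPS T4 for 22, in mock T24 for 16 and in mock T4 for 10.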

How the data were processed

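RNA of PBMCs was hybridised to one-colour Agilent arrays, 24 in all, 1 per rabbit and group. The authors scanned them with Agilent Feature Extraction 10.7.3.1 and deposited its text files, whose median signal intensity per spot, before normalization, was used here. A deposited log2 table equalled the same intensities on the log2 scale with each array's mean taken off, to within 5e-09, and served as an alternative. Groups came from the labels. The members and gene lists were chosen with earlier results of these data known.

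Control spots and outlier flags were left out, intensities were log2-transformed and centred on the array median after the authors' methods, spots were averaged per probe and probes per gene. Probes were named from the design's gene name, then RefSeq accession, then gene number, the latter through the RefSeq gene table of mOryCun1.1, used for names only. limma 3.58.1 in R 4.3.3 (lmFit and eBayes) was fitted to 28795 genes with 1 mean per group and no block, with Benjamini-Hochberg adjustment over all genes, after tests on simulated data. The number of arrays limits the precision.

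Named genes were the 8 largest called rises and falls per stimulation and time in the same direction in 4 of 4 rabbits and detected on every array of the brighter group, the 5 largest each way for mock culture and the interactions, and a list of 51 transporters. Other called members, with the block or without, were named after their values were seen. Where a gene was on no array of a group well above background, the fold is a lower bound, taken against the higher of its signal and the lowest signal well above background on each array.

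Rabbit numbers mark the same animals and so pair the samples. The median correlation of deviations from the group means was 0.23 over 60 pairs of arrays of 1 rabbit and -0.08 over 180 pairs of different rabbits. Alternatives were quantile normalization, Agilent's processed signal at the 75th percentile, normexp with offset 50, the deposited table, dim probes left out, outlier spots kept, only the arrays of a comparison, rabbit or slide as a block, another order of naming, single probes, a fold change of at least 2, and each rabbit left out.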

Additional observations from a re-analysis of the deposited data

Results flagged for a closer look

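Over the stimulation effects of named genes, 44 sets of 4 within-rabbit differences were searched for 1 rabbit far from the others, and 2 stood out, near the 1 in 20 that chance flags. After PMA-Ionomycin at T24, SLC17A9 differed from mock by -1.26 on the log2 scale in rabbit 5 and by -1.85 to -1.77 in the others. In the same comparison SLC6A4 differed by -2.71 in rabbit 4 and by -1.39 to -1.30 in the others, and that rabbit had the highest mock T24 level. No PMA-Ionomycin T24 array was well above background for SLC6A4, so the exact sizes of these differences are not known.

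The effect of a stimulation differed between T4 and T24, by the interaction test in limma, for 2 members after LPS and for 39 after PMA-Ionomycin. After LPS the interactions of SLC7A7 and SLC35B4 were 2.09 and 1.67 on the log2 scale. After PMA-Ionomycin the 5 largest upward interactions were 2.59 for SLC25A12, 2.33 for SLC7A8, 2.04 for SLC39A8, 0.97 for the scaffold gene SLC9A3R1 and 0.91 for SLC25A16, a mitochondrial carrier. The 5 largest downward ones were -3.09 for SLC7A7, -2.50 for SLC3A2, -2.33 for SLC6A8, -2.12 for SLC15A3 and -2.07 for SLC23A2. SLC7A7 thus stands at the top of one list and at the bottom of the other.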

How the results depend on the processing

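The total counts of called SLC genes after PMA-Ionomycin and in mock culture stayed within 1.5 times the reported ones under every alternative except a required fold change of at least 2, which gave 23 of 46 at T4, 29 of 65 at T24, 22 of 42 in mock culture and 25 of 39 for the interaction. With 1 rabbit left out these counts ranged from 37 to 42, 51 to 55, 29 to 40 and 31 to 42, and without rabbit 2 the lower calls went from 15 to 8 at T4 and from 7 to 4 in mock culture. The LPS counts were small and moved more. At T4 the count of 1 became 0 with the processed signal, with the deposited table, with only the arrays of the comparison and with a fold change of at least 2, and 2 with dim probes left out and with slide as a block. At T24 the count of 1 became 4 with quantile normalization, 3 with normexp and with the deposited table, and 2 with the processed signal, with dim probes left out, with slide as a block and with single probes. For the LPS interaction the count of 2 became 4 with quantile normalization, 0 with the processed signal and 1 with only the arrays of the comparison. With 1 rabbit left out the LPS counts ranged from 0 to 1 at T4, 0 to 4 at T24 and 0 to 2 for the interaction. The LPS calls over all genes moved too. Without rabbit 2 or rabbit 4, 16 higher and 279 lower at T4 became 0 and 0. At T24, 184 higher and 168 lower became 51 and 59 without rabbit 2, 49 and 36 without rabbit 4, and 238 and 374 without rabbit 5. For the interaction, 491 upward and 69 downward became 2 and 5 without rabbit 2 and 23 and 8 without rabbit 4. Lost LPS calls were thus not confined to SLC genes. The cause was not tested. Pairing by rabbit as a block gave 6, 8 and 14 for LPS at T4, at T24 and for the interaction, and kept the counts for PMA-Ionomycin and mock culture within 1.5 times. Among the uncalled LPS values given, those of SLC7A5, SLC36A1, SLC35F5 and SLC8A3 at T24 and of SLC25A11, SLC35B4 and SLC7A7 at T4 passed under at least 1 alternative other than the rabbit block.

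Of 94 called pairs of a gene and a comparison, 71 kept their side of the threshold and their direction under all 15 alternatives (14 for SLC9A3R1, which the other order of naming did not give), 12 lost the call only where a rabbit was left out, and 11 under another alternative too, SLC39A8 after LPS at T24 with normexp (adjusted p = 0.0793) and SLC12A4 after LPS at T4 with the deposited table (0.0555) among them. No named value changed sign while called. The processed signal moved the median log2 FC of all genes to 0.22 for LPS and -0.16 for PMA-Ionomycin at T4, and to -0.26 for PMA-Ionomycin at T24. Signal over background limits the 60 members detected in 1 to 5 groups.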

Other observations

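Probes described as SLC2A3 (GLUT3), the glucose transporter of lymphocytes and platelets, stand under the gene number LOC100125981 and so were not counted among the SLC genes. Their log2 FC after PMA-Ionomycin was 1.43 ± 0.28 at T4 (adjusted p in limma = 0.000353) and -0.43 ± 0.28 at T24 (adjusted p = 0.29), with an interaction of -1.86 ± 0.40 (adjusted p = 0.000919). After LPS it was 1.10 ± 0.28 at T24 (adjusted p = 0.0509). These values were looked up after the other results were known.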
